A study of Homo sapiens with 6 samples.

Results

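The tight junction genes described here are CLDN1, CLDN4, CLDN7, CLDN12, OCLN, MARVELD2, F11R, TJP1 and CGN. They were chosen by symbol, and all 9 were found among the 25349 genes of the count table and passed the filter on low counts. The 6 libraries came from SCC-9, a long-established human line of tongue squamous carcinoma, grown with hydrocortisone. In 3 libraries (siE7, titled siKi) the cells received an siRNA that targets exon 7 of MKI67, which encodes the proliferation marker Ki67. In the other 3 (siNC, titled NS) they received a nonspecific control siRNA. Each siRNA was given at 10 nM on day 0 and again on day 2, with RNA extraction on day 4. All 6 libraries thus share the transfection, the lipid reagent and the medium, and the siRNA is the difference between them. The methods list 3 exon 7 siRNAs without naming the one in these libraries, only this cell line was sequenced, and nothing says whether the replicates were separate cultures, so the p-values measure the spread between these libraries.

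Tight junctions seal the space between neighbouring epithelial cells near their apical side. Claudins form the strands, some tightening the barrier and others forming channels for ions, while the MARVEL proteins occludin and tricellulin shape the strands and the points where cells meet. Junctional adhesion molecules help to place the junction, and the scaffold ZO-1 and its partner cingulin tie it to the actin cytoskeleton. In stratified squamous epithelium tight junctions sit in the upper living layers, and several claudin genes are also expressed in layers without a tight junction.

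The libraries held 25608192 to 29550264 counts on genes, and edgeR's filter kept 14661 genes. MKI67 had a TMM-normalized level of 1059 ± 26.7 CPM (counts scaled to library size, mean ± SD, n = 3) in the siNC libraries and 115 ± 8.70 CPM in the siE7 libraries, a log2 fold change of -3.21. siE7 replicate 1 stood apart from the other siE7 libraries. A chi-square of the counts gave 61.1 and 72.7 per degree of freedom between it and siE7 replicates 2 and 3, against 5.54 to 6.22 for the other pairs within a group. Values without it are therefore given below. The 7 epithelial markers fixed for the check of the cell type were all detected, and their summed level was 16619 to 17410 CPM with siNC and 17003 to 22493 CPM with siE7. That sum does not show each marker. CDH1 and EPCAM, both among the 7, were lower with siE7 (log2 fold changes of -1.03 and -0.77), and the other epithelial markers were not compared singly. All 4 endothelial markers stayed under 1 CPM in every library, CLDN5 among them. Of the 6 fibroblast markers 4 stayed under 1 CPM, and the summed fibroblast level was 16.5 to 19.6 CPM with siNC and 18.2 to 24.2 CPM with siE7. Of the 4 leukocyte markers, PTPRC and CD3E were not listed in the table and CD68 stayed under 1 CPM, and the summed level was 2.31 to 3.60 CPM with siNC and 1.34 to 3.10 CPM with siE7.

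With siE7, CGN, OCLN and CLDN4 fell to 38.1%, 41.8% and 44.0% of their siNC level, TJP1 fell to 78.9%, and CLDN1, CLDN7, CLDN12, MARVELD2 and F11R did not pass the test. Calls rest on edgeR's quasi-likelihood test at an adjusted p under 0.05 (Benjamini-Hochberg, over every tested gene), and a DEG (differentially expressed gene) was in addition changed by more than 1 on the log2 scale. Of the 9 genes 4 were called lower and 0 higher. The same test called 34.0% of all tested genes, 16.0% lower and 18.0% higher. CGN, OCLN and CLDN4 were DEGs, 3 of 9 genes, while 12.2% of all tested genes were DEGs, 4.84% lower and 7.38% higher. Levels of the groups were apart, without overlap, for 5 of the 9 genes, 4 lower and 1 higher, against 47.6% of all tested genes, 22.7% lower and 24.9% higher. The median log2 fold change was -0.14 for the 9 genes and 0.08 for all tested genes. Being bulk libraries, they do not tell fewer cells that express a gene from less RNA of that gene per cell.

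**Figure D1:**
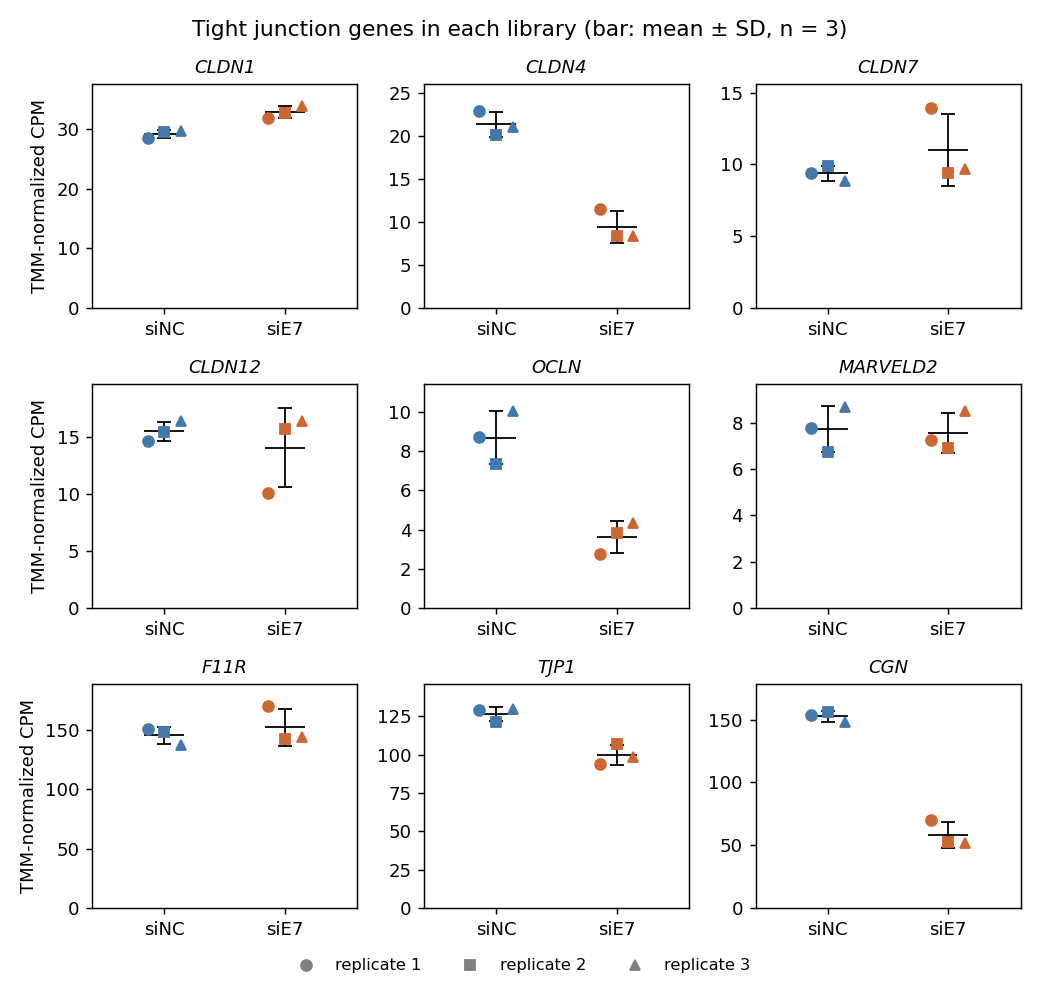
TMM-normalized CPM (vertical axis of each panel, starting at 0) of the 9 tight junction genes in the siNC and siE7 groups (horizontal axis). Points are libraries with the marker giving the replicate, and the bar is the mean ± SD of 3 libraries. The siE7 libraries lie below the siNC libraries for CLDN4, OCLN, TJP1 and CGN and above them for CLDN1.

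CLDN4 (ENSG00000189143.10) encodes claudin-4, a barrier claudin. In GRCh38 it spans 73799542 to 73832690 of chromosome 7, plus strand. Its level was 23.0, 20.1 and 21.1 CPM in siNC replicates 1 to 3 and 11.6, 8.33 and 8.34 CPM in siE7 replicates 1 to 3. Every siE7 library lay below every siNC library, and siE7 replicate 1 was the highest of its group. CLDN4 changed by -1.18 on the log2 scale (standard error 0.169, 95% interval -1.55 to -0.81, edgeR adjusted p = 0.00037). Without siE7 replicate 1 it was -1.42, and over all 15 alternatives it lay between -1.42 and -1.02 and stayed called.

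CLDN1 (ENSG00000163347.6, chromosome 3 from 190305707 to 190322446, minus strand) encodes claudin-1, which is needed for the water barrier of the epidermis. It had 28.5, 29.6 and 29.7 CPM with siNC and 31.9, 32.7 and 34.0 CPM with siE7. The groups did not overlap, with siE7 higher, yet the difference was small. The log2 fold change of 0.17 (95% interval -0.09 to 0.42, adjusted p = 0.29) was not called. Scaled by library totals alone it was 0.34 and was called (edgeR adjusted p = 0.036). That scaling raised the median log2 fold change of all tested genes by 0.169.

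CLDN7 (ENSG00000181885.18, chromosome 17 from 7259903 to 7263983, minus strand) encodes claudin-7, which binds EpCAM. Its level was 9.40, 9.89 and 8.86 CPM with siNC and 13.9, 9.38 and 9.71 CPM with siE7. Only siE7 replicate 1 lay above the siNC libraries, and the groups overlapped. Over all 6 libraries the log2 fold change was 0.23 (95% interval -0.18 to 0.64, adjusted p = 0.36), and -0.03 without siE7 replicate 1. Exons of CLDN7 overlap those of ELP5 on the other strand, whose log2 fold change was -0.34 (adjusted p = 0.066).

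CLDN12 (ENSG00000157224.16, chromosome 7 from 90383721 to 90513402, plus strand) encodes claudin-12, an unusual claudin without the PDZ-binding end that other claudins use to hold ZO proteins. Its level was 14.7, 15.4 and 16.4 CPM with siNC and 10.1, 15.7 and 16.4 CPM with siE7. Here siE7 replicate 1 was below the 5 other libraries, which lay close together. CLDN12 had a log2 fold change of -0.14 (95% interval -0.55 to 0.27, adjusted p = 0.59), and -0.01 without siE7 replicate 1. Exons annotated to CLDN12 overlap exons of GTPBP10 and CDK14 on the same strand. CDK14 rose by 1.62 on the log2 scale (edgeR adjusted p = 0.00015), and whether its reads were counted on CLDN12 was not tested.

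OCLN (ENSG00000197822.12, chromosome 5 from 69492292 to 69558104, plus strand) encodes occludin. Its level was 8.71, 7.33 and 10.0 CPM with siNC and 2.73, 3.84 and 4.32 CPM with siE7. The groups did not overlap, and siE7 replicate 1 was the lowest library. OCLN changed by -1.26 on the log2 scale (standard error 0.218, 95% interval -1.74 to -0.78, edgeR adjusted p = 0.0013). It was -1.15 without siE7 replicate 1, and it was called in all 15 alternatives. The annotation holds a partial copy, the pseudogene OCLNP1, on the same chromosome from 71074225 to 71093193. OCLNP1 had at most 0.135 CPM in any library, and the authors' counting could have left out reads shared by the copies.

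MARVELD2 (ENSG00000152939.17), the gene of tricellulin, lies on the same chromosome and strand as OCLN from 69415065 to 69444330. It had 7.78, 6.73 and 8.67 CPM with siNC and 7.25, 6.88 and 8.50 CPM with siE7. The groups overlapped throughout, and the log2 fold change was -0.03 (95% interval -0.42 to 0.36, adjusted p = 0.90). OCLN thus fell in the same libraries in which a change of MARVELD2 beyond this interval was not seen, although the difference between both genes was not tested.

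F11R (ENSG00000158769.18, chromosome 1 from 160995211 to 161021343, minus strand) encodes the junctional adhesion molecule JAM-A. Its level was 151, 148 and 137 CPM with siNC and 170, 142 and 144 CPM with siE7. siE7 replicate 1 was again the highest library and the others were mixed. The log2 fold change was 0.06 (95% interval -0.19 to 0.31, adjusted p = 0.69), and -0.08 without siE7 replicate 1.

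CGN (ENSG00000143375.15) encodes cingulin, which binds ZO-1 on the cytoplasmic side of the junction. It spans 151510510 to 151538692 of chromosome 1, plus strand. Its level was 154, 156 and 148 CPM with siNC and 69.9, 52.9 and 51.6 CPM with siE7. All siE7 libraries were far below the siNC libraries, and siE7 replicate 1 fell least. CGN changed by -1.39 on the log2 scale (standard error 0.134, 95% interval -1.69 to -1.10, edgeR adjusted p = 2.8e-05). It was -1.61 without siE7 replicate 1 and was called in all 15 alternatives.

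TJP1 (ENSG00000104067.17, chromosome 15 from 29699367 to 29968915, minus strand) encodes ZO-1, the scaffold that binds claudins, occludin, JAM-A and actin. Its level was 129, 121 and 130 CPM with siNC and 94.1, 107 and 98.7 CPM with siE7. The groups did not overlap. TJP1 changed by -0.34 on the log2 scale (standard error 0.107, 95% interval -0.58 to -0.11, edgeR adjusted p = 0.029). The call was lost in 6 of the 15 alternatives, with adjusted p between 1.7e-06 and 0.19 over all of them. Those were library totals as the only scaling (-0.17), the block on the replicate number (-0.34, adjusted p = 0.059), and leaving out siNC replicate 1 (adjusted p = 0.11), 2 (0.077) or 3 (0.12) or siE7 replicate 3 (0.077). With 3 libraries per group, an exact permutation test on the log2 levels, two-sided, gave p = 0.10 for CLDN1, CLDN4, OCLN, TJP1 and CGN, the smallest it allows.

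**Figure D2:**
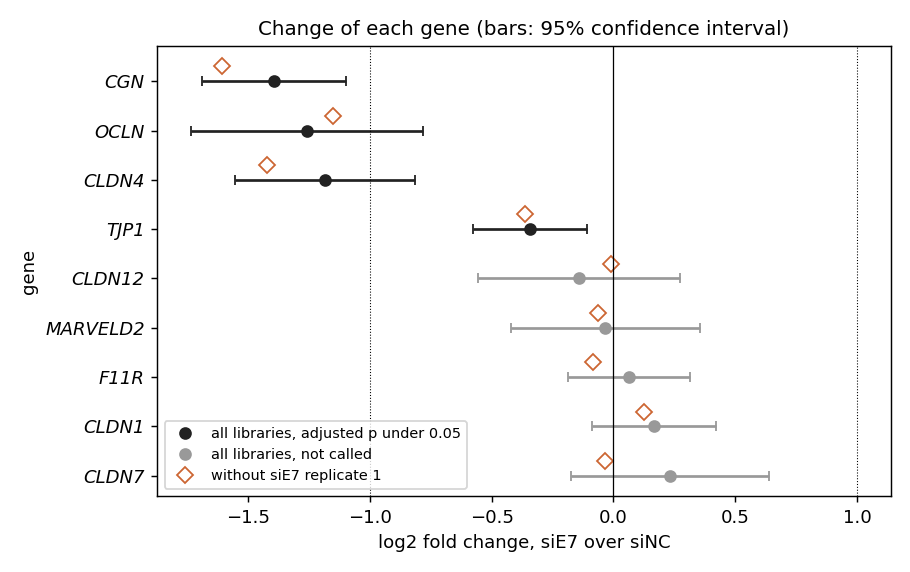
Log2 fold change of siE7 over siNC (horizontal axis) for each of the 9 genes (vertical axis). Circles with bars give the value and its 95% confidence interval from all 6 libraries, dark where the adjusted p was under 0.05 and grey where the gene was not called, and open diamonds give the value without siE7 replicate 1. Dotted lines mark a log2 fold change of -1 and 1. CGN, OCLN and CLDN4 lie beyond -1 with and without that library.

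The promoters of the 3 DEGs and of CLDN7 are shown because E-boxes of the CAGGTG kind are bound by the repressors SNAI and ZEB, whose genes are described below, in front of claudin and occludin genes. Windows of 300 bases around RefSeq transcription starts, mostly upstream, were found in GRCh38.p14 for 8 of the 9 genes. The capitals mark matches to CAGGTG on either strand. The sequences are from chr7:73830746-73831045 (CLDN4, plus strand), chr1:151511137-151511436 (CGN, plus strand), chr5:69492540-69492839 (OCLN, the second of 2 windows, plus strand) and chr17:7262429-7262728 (CLDN7, the first of 2 windows, minus strand).
CLDN4: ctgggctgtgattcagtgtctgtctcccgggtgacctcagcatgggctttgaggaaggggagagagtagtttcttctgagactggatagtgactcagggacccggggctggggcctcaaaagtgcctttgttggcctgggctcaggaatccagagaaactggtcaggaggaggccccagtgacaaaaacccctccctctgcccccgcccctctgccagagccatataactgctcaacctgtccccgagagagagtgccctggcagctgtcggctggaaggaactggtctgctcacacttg
CGN: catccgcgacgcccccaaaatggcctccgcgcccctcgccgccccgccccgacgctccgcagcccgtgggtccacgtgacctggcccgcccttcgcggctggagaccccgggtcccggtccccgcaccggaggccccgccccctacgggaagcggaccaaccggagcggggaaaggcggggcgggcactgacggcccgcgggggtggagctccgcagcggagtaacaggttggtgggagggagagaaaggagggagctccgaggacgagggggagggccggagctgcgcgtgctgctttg
OCLN: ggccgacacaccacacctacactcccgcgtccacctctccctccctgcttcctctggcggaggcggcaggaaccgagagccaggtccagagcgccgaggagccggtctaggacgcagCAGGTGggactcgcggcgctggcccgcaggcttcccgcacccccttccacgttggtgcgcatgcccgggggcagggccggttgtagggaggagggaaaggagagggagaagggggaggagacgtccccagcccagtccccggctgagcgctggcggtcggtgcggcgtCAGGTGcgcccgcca
CLDN7: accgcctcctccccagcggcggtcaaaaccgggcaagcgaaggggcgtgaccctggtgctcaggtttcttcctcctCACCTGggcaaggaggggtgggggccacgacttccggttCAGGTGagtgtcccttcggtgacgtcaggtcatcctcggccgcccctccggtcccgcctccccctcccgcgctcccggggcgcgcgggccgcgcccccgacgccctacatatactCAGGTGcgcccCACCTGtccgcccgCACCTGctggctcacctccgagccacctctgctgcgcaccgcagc
The windows of CLDN4 and CGN held no match, the OCLN window 2 and the CLDN7 window 5. The other OCLN window held 1, and so did 1 of 4 TJP1 windows, while the windows of CLDN1, CLDN12 and MARVELD2 and the second CLDN7 window held none. Of all 34943 promoter windows of this length 20.6% held at least 1 match. The windows shown for OCLN and CLDN7 are those of each gene with more matches. Whether a repressor bound any of these windows, or changed these genes, was not tested. The GRHL motif AACCGGTT, of a family that activates claudin genes, was in none of the 13 windows of these genes and in 0.132% of all windows.

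Levels were compared between genes per kilobase (kb) of exon. With siNC the order was F11R (28.7 ± 1.41 CPM per kb, SD, n = 3), CGN (23.1 ± 0.655), TJP1 (11.2 ± 0.415), CLDN1 (8.06 ± 0.185), CLDN4 (4.55 ± 0.306), CLDN7 (3.76 ± 0.206), CLDN12 (2.31 ± 0.127), MARVELD2 (1.44 ± 0.182) and OCLN (0.772 ± 0.120). No 2 neighbours in that order had overlapping libraries. With siE7, F11R stayed first at 30.1 ± 3.08 CPM per kb, and CLDN1 (9.05 ± 0.284), TJP1 (8.82 ± 0.568) and CGN (8.79 ± 1.54) followed with overlapping libraries. CLDN7 came next at 4.42 ± 1.02, CLDN12 (2.09 ± 0.518) and CLDN4 (2.00 ± 0.397) overlapped, and MARVELD2 and OCLN stayed last at 1.41 ± 0.158 and 0.322 ± 0.0722. With the longest transcript as the length, the siNC order was the same and CLDN1 came after TJP1 and CGN with siE7.

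The makeup of the 4 claudins was read as the share of each in their summed CPM per kb, which does not depend on how libraries are scaled. CLDN4 held 26.1%, 22.9% and 24.0% in the siNC libraries and 13.4%, 10.5% and 10.2% in the siE7 libraries, a mean of 24.4% ± 1.64 against 11.4% ± 1.79 (SD, n = 3). CLDN1 held 43.1% ± 1.01 with siNC and 51.6% ± 3.18 with siE7 (SD, n = 3), and its groups did not overlap. CLDN7 held 20.1% ± 1.08 with siNC and 25.0% ± 4.71 with siE7 (SD, n = 3), again without overlap. The shares of a library add up to its whole, so the fall of CLDN4 by itself raises the other shares. The levels of CLDN1 and CLDN7 were not called. For the shares of CLDN4, CLDN1 and CLDN7, thus not separate results, an exact permutation test, two-sided, gave p = 0.10, the smallest 3 libraries against 3 allow. CLDN12 held 12.3% ± 0.688 and 12.0% ± 3.32 (exact permutation p = 1.0). Without siE7 replicate 1 the siE7 mean was above the siNC mean by 2.16 percentage points for CLDN7, in place of 4.88, and by 1.57 for CLDN12, in place of -0.348. The summed level of the 4 claudins was 18.7 ± 0.0198 CPM per kb with siNC and 17.6 ± 0.737 with siE7 (SD, n = 3).

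**Figure D3:**
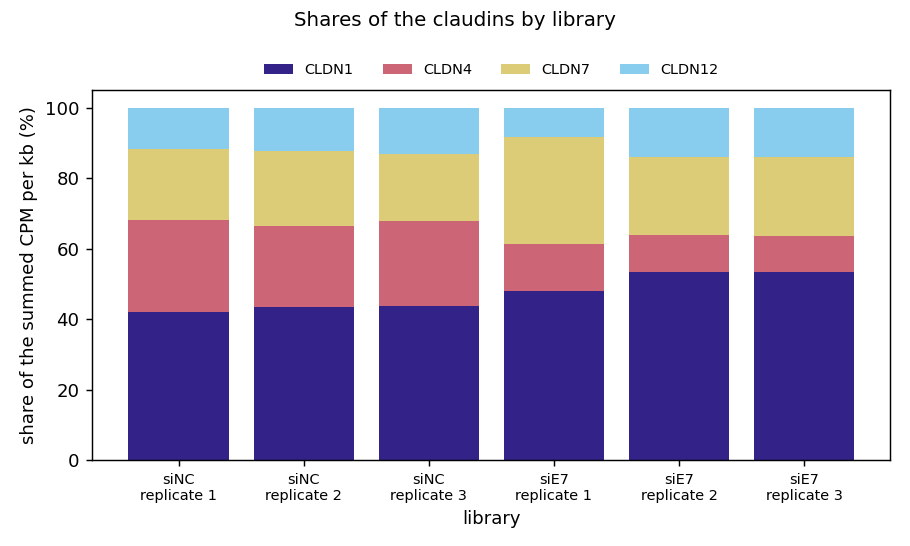
Share (vertical axis, in percent) of CLDN1, CLDN4, CLDN7 and CLDN12 in their summed CPM per kb of exon in each of the 6 libraries (horizontal axis), as stacked bars. The CLDN4 segment is 22.9% to 26.1% in the siNC libraries and 10.2% to 13.4% in the siE7 libraries.

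Within the siE7 group, the place of replicate 1 followed the GC content of the genes. Among the 9 genes it was the highest siE7 library for CLDN7, CLDN4, CGN and F11R, whose longest transcripts had 59.6%, 57.5%, 56.2% and 47.7% GC. It was the lowest for TJP1 (44.8%), CLDN1 (41.3%), OCLN (39.9%) and CLDN12 (38.1%), and in the middle for MARVELD2 (43.5%). Its log2 level minus the mean of siE7 replicates 2 and 3 ranged from -0.67 for CLDN12 to 0.55 for CLDN7. Across the 9 genes this difference and the GC content had a Pearson's r of 0.93 and a Spearman rank correlation of 0.93, and across 14645 tested genes 0.67 and 0.72. These are descriptions across genes of the same 3 libraries, which are not independent points. After removal of the GC trend in every library, the log2 fold changes were -1.18 for CLDN4, -1.39 for OCLN, -1.39 for CGN and -0.42 for TJP1, and all 4 were called. That removal also raised the calls over all genes, to 3730 lower and 3505 higher from 2351 and 2639.

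**Figure D4:**
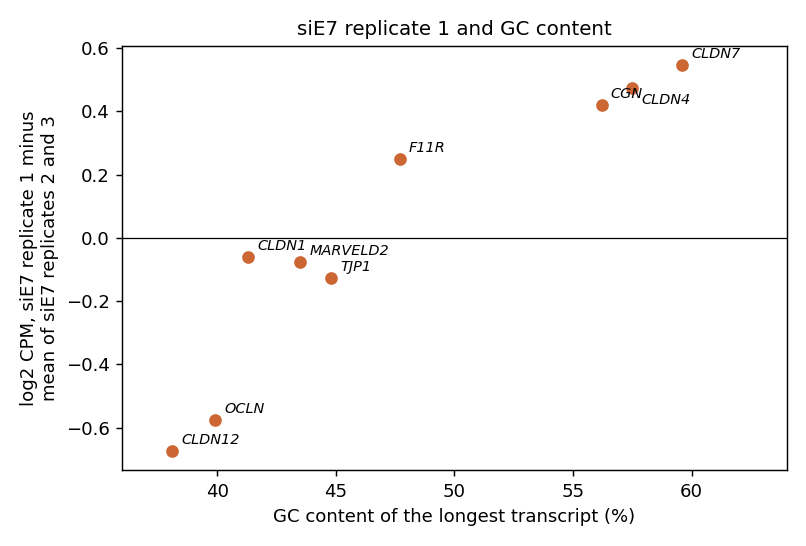
Difference in log2 CPM between siE7 replicate 1 and the mean of siE7 replicates 2 and 3 (vertical axis) against the GC content of the longest transcript in percent (horizontal axis), with 1 labelled point for each of the 9 genes. The 4 genes with the most GC, F11R at 47.7% and above, lie above 0 and the 5 others, TJP1 at 44.8% and below, lie below it.

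A list of 90 genes for the claudin family, its partners, the plaque, polarity complexes and regulators of transcription gave the rest of the pathway. Besides the 9 genes above it held 81, of which 70 were in the table and 54 were tested. Of these 54 genes 17 were called lower and 7 higher, 24 in all. That is 44.4%, against 34.0% of all tested genes (16.0% lower and 18.0% higher). DEGs were 10, 6 lower and 4 higher, against 12.2% of all tested genes (4.84% lower and 7.38% higher). The median log2 fold change of the 54 genes was -0.18. Over the whole list of 63 tested genes 21 were lower and 7 higher. Without siE7 replicate 1 these counts were 35 and 11, and without siNC replicate 3 they were 12 and 6. Calls over all tested genes moved the same way. They were 2351 lower and 2639 higher in all libraries, 4422 and 4343 without siE7 replicate 1, and 1552 and 1601 without siNC replicate 3.

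The other tested claudin-family genes went both ways. CLDN15, a channel-forming claudin, had 0.807 ± 0.286 CPM with siNC, and 2.06 ± 0.730 CPM with siE7 (SD, n = 3) and rose, with a log2 fold change of 1.35 (error 0.370, edgeR adjusted p = 0.016). The call was lost without siNC replicate 2 or 3 (adjusted p up to 0.074). CLDND1, a distant relative, fell by 0.55, and its call was lost with library totals as the only scaling and without any 1 siNC replicate (adjusted p up to 0.14). CLDN23 had a log2 fold change of -0.37 and was not called (adjusted p = 0.082), although its groups did not overlap. LSR, an angulin of tricellular junctions, fell from 127 ± 5.51 to 75.4 ± 10.9 CPM (SD, n = 3), a log2 fold change of -0.75 (adjusted p = 0.0010). MARVELD3, the remaining MARVEL protein, had 66.0 CPM in both groups and a log2 fold change of 0.00 (95% interval -0.24 to 0.24). The JAM relatives CXADR (0.11) and CLMP (-0.46) were not called.

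Of the 13 other plaque genes tested 3 were called lower and 1 higher, 30.8% against 34.0% of all tested genes. YBX3, the gene of the ZO-1-binding factor ZONAB, fell from 282 ± 3.28 to 121 ± 4.97 CPM (SD, n = 3), a log2 change of -1.22 (standard error 0.103, adjusted p = 1.1e-05). AMOT, which encodes angiomotin, had a log2 fold change of -1.21 (adjusted p = 0.0016). MAGI2, a scaffold of low level here, rose by 0.96 (adjusted p = 0.024), and the call was lost in 4 alternatives that left out a library (adjusted p up to 0.10). TJP3, CGNL1, MAGI1, MAGI3, MPDZ, PATJ, AMOTL1, AMOTL2 and SYMPK were not called.

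Of 12 polarity genes tested 5 were lower and 1 was higher, while 16.0% of all tested genes were called lower and 18.0% higher. LLGL1, a basolateral polarity gene, fell by 0.70 (adjusted p = 0.0023). PARD6B and PARD6A, adaptors of the PAR complex, had log2 fold changes of -1.13 and -1.20 at levels under 5 CPM in every library (adjusted p = 0.017 and 0.026). PARD6B was no longer called without siNC replicate 3, and PARD6A not without any 1 siNC replicate or siE7 replicate 2. DLG1 and LLGL2 had log2 fold changes of -0.59 and -0.50, and PARD3 rose by 0.35 (adjusted p = 0.041), but PARD3 kept its call in only 6 of 15 alternatives, DLG1 in 11 and LLGL2 in 9. RAB3B, a small GTPase of vesicle traffic, went from 1.13 ± 0.547 to 0.264 ± 0.200 CPM (SD, n = 3), a log2 fold change of -2.09 (adjusted p = 0.021), a call lost without siNC replicate 3 (adjusted p = 0.12), and RAB13, a small GTPase of junction traffic, had a log2 fold change of 0.21 and was not called.

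The class of claudin partners, membrane proteases and protease inhibitors had 5 of 6 genes called, all lower. That is 83.3%, against 34.0% of all tested genes called and 16.0% called lower. ST14, the gene of the protease matriptase, fell from 328 ± 13.1 to 115 ± 18.2 CPM (SD, n = 3), a log2 change of -1.51 (standard error 0.129, adjusted p = 1.2e-05). EPCAM, which binds claudin-7, had a log2 fold change of -0.77 (adjusted p = 0.0029). The matriptase inhibitors SPINT2 and SPINT1 were lower, with log2 fold changes of -0.62 and -0.48, and SPINT1 kept its call in 9 of 15 alternatives. PRSS8, the gene of prostasin, was not called (-0.15).

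Of the 5 listed transcriptional repressors 3 were tested, and all 3 were called higher, against 18.0% of all tested genes. SNAI2 rose from 122 ± 7.27 to 307 ± 37.1 CPM (SD, n = 3), a log2 change of 1.33 (standard error 0.122, adjusted p = 1.9e-05). TWIST1 rose by 1.20 (adjusted p = 7.2e-05) and ZEB2 by 0.83 (adjusted p = 0.012), the latter without a call when siNC replicate 2 or siE7 replicate 3 was left out (adjusted p up to 0.071). SNAI1 and ZEB1 had 2 to 13 counts per library and were not tested. The other 7 transcription factors of the list are drawn as activators, a class name that need not hold for each. Among them KLF4 rose by 1.12 (adjusted p = 0.00033), and GRHL3 fell by 0.56 (adjusted p = 0.044), a call kept in 5 of 15 alternatives. GRHL1, GRHL2, OVOL1, OVOL2 and ELF3 were not called, and GRHL2 had 65.4 ± 2.82 CPM with siNC and 60.5 ± 3.94 CPM with siE7 (SD, n = 3).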

How the data were processed

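RNA-seq was done on 6 SCC-9 libraries. The table deposited by the authors holds raw counts, whole numbers of reads per gene, for 25349 genes. Directional mRNA libraries were sequenced in pairs on an Illumina NovaSeq, and the submitters' processing notes name HISAT2, DESeq2 and GRCh38. The counting tool, the annotation release and the use of strand in counting are not given in the sources used here.

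Libraries were grouped by title. Genes were filtered by filterByExpr of edgeR 4.0.16 (R 4.3.3), scaled by TMM and compared by the quasi-likelihood F-test with robust dispersions and Benjamini-Hochberg adjustment over all 14661 genes kept. CPM used the TMM-scaled library sizes. The study's thresholds defined DEGs (adjusted p under 0.05, log2 change above 1 in size). The tests were tested on simulated data. The 15 alternatives were DESeq2 1.42.0, 3 scalings (RLE, upper quartile, library totals only), no low-count filter, at least 10 counts in every library, a replicate block, removal of the GC trend (lowess, span 0.3) without and with that block, and omission of each of the 6 libraries. Positions, exon lengths and GC content come from GENCODE 44, to which 25269 gene identifiers were matched. Promoter windows come from RefSeq, and the exact permutation test used library values.

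The genes named were the 9 tight junction genes, MKI67, the DEGs of the list, its tested claudins and the 3 genes with the smallest p in each class. Some genes of the list, and 1 of its classes as a group, enter its counts but are not reported here by name, nor drawn. Others named were chosen after their values were seen, as were the check of replicate 1 against GC content and the motifs. The 9 genes and the list were chosen with earlier results of these data known. Figures were drawn with matplotlib 3.10.9 in Python 3.11.15.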

Additional observations from a re-analysis of the deposited data

How the results depend on the processing

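CGN, OCLN and CLDN4 were downregulated DEGs in all 15 alternatives, and MKI67 kept its direction and its call. TJP1 kept its direction, with -0.17 for library totals as the only scaling and -0.34 with the replicate block, neither called, and -0.39 to -0.33 with 1 library left out. With library totals as the only scaling, 1 of the 9 genes, CLDN1 (0.34), was called higher, CLDN12 (0.038) and MARVELD2 (0.14) changed sign without a call, and the median of the 9 genes was 0.038. The same setting called 4030 genes higher and 1632 lower, against 2639 and 2351. Removal of the GC trend called 3505 genes higher and 3730 lower, or 3474 and 3715 with the replicate block. With 1 library left out, 1598 to 4343 genes were called higher and 1552 to 4422 lower, the highest counts both without siE7 replicate 1, and the tight junction list had 12 to 35 genes lower (21 in all libraries) and 5 to 11 higher (7 in all libraries), again with the highest counts without siE7 replicate 1 and the lowest count of lower genes without siNC replicate 3. With 1 library left out, CLDN7 ranged from -0.035 to 0.33, MARVELD2 from -0.13 to 0.051 and F11R from -0.085 to 0.11, none called. The difference in the share of CLDN12 between siE7 and siNC was 0.370 percentage points without division by length, and -1.34 to 1.57 with 1 library left out. The replicate numbers were not taken as pairs, since nothing in the titles says that they are. Deviations of same-numbered libraries had correlations of -0.039, -0.021 and -0.052. With siE7 replicate 1 far from its group, these correlations could not exclude pairs. The replicate block changed no call among the 9 genes apart from TJP1. The cause of these changes was not tested.

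Depth limits the claudins of low level. A count of 0 in all 3 siNC libraries allows up to 0.0394 CPM over the group, for counting error only.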

Other observations

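The table held 8 claudin-family genes that were too low to be tested, and their counts are given here after being seen. CLDN3, a barrier claudin like CLDN4, had 0 counts in each siNC library and 16, 17 and 3 counts in siE7 replicates 1 to 3. Pooled over the siE7 libraries, CLDN3 was at least 10.4-fold above a floor of 3 counts over the siNC group. That bound covers counting error only, not the spread between libraries. In siE7 replicate 3 the level was 0.098 CPM, against 0.540 and 0.616 CPM in siE7 replicates 1 and 2. Fitted without the low-count filter, edgeR gave CLDN3 an adjusted p of 7.4e-05. Adjusted p-values from that fit are not comparable with those above. For CGN edgeR gave 1.6e-22 there, against 2.8e-05 with the filter, and for TJP1 0.038 against 0.029. Over all genes the unfiltered fit called 2944 higher and 2539 lower. CLDN9 had 12, 8 and 11 counts with siNC and 5, 8 and 6 with siE7, and was not called in that fit (adjusted p = 0.40). CLDND2 had 6 counts over the siNC libraries and 27 over the siE7 libraries (adjusted p = 0.14), and CLDN16 had 4 and 7. CLDN5, CLDN6, CLDN14 and CLDN19 had 0 counts with siNC and 1 to 5 counts over the siE7 libraries.

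CDH1, the gene of the adherens junction protein E-cadherin, had 171 ± 4.88 CPM with siNC and 83.6 ± 12.8 CPM with siE7 (SD, n = 3). CDH1 changed by -1.03 on the log2 scale (standard error 0.126, edgeR adjusted p = 0.00014).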
